A study of Arabidopsis thaliana with 4 samples.

Results

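The genes described here encode the phototropins of Arabidopsis thaliana and proteins that act with them. They are PHOT1 and PHOT2, the BTB-domain genes NPH3, RPT2, NPY1, NPY3 and NPY5, and the phytochrome kinase substrate genes PKS1, PKS2 and PKS4. These 10 genes were picked by locus identifier from the 33602 genes of the deposited table, with their change after glutamate already known. Their values in that contrast are therefore a description. Their calls in the fit over all genes are counted beside those of all tested genes and serve as no evidence about the set.

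Phototropins are plasma membrane kinases with LOV domains that absorb blue light. They steer the bending of shoots and roots, the movement of chloroplasts and the opening of stomata. NPH3 is a scaffold that binds phototropin and is needed for bending, and RPT2 is its light-induced relative. NPY proteins belong to the same family and act with AGC kinases such as PINOID on the polar placement of auxin carriers. PKS proteins bind phytochromes, phototropins and NPH3.

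Whole 14-day-old seedlings of the Col-0 ecotype were sequenced as 4 RNA-seq libraries. The 2 control libraries (0 h) came from seedlings kept on a half-strength basal salt mixture lacking nitrogen. The 2 glutamate libraries came from seedlings moved for 0.5 h to that mixture with 2.5 mM glutamate, so that both groups had grown without nitrogen. No library was taken after a move to medium without glutamate, and the labels give neither the hour of sampling nor the light during the move. Handling, elapsed time, hour and glutamate thus cannot be told apart. No label states whether replicate libraries derive from independent cultures, so each p reflects library-to-library spread alone, possibly of technical origin.

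The libraries held 21776591 to 27674428 recovered reads, and 3 reads in a gene of 1 kb were worth 0.104 to 0.152 RPKM (reads per kilobase of gene and per fixed number of library reads). Floors of this kind cover counting error only. All 8 shoot markers had reads in every library, and their summed level was 16917 and 15879 RPKM in the control and 13649 and 11817 RPKM in the glutamate libraries. The 9 root markers summed to 425 and 286 RPKM in the control and to 276 and 177 RPKM in the glutamate libraries, with PYK10 holding most of that sum and SHV2 near 0. The 3 guard cell markers summed to 18.0 to 19.4 RPKM in all 4 libraries. In limma, 14.6% of all tested genes were called lower at an adjusted p under 0.05 and 16.3% higher. Called lower were 3 of 8 tested markers for shoot, 1 of 5 for root and 0 of 3 for guard cells, with 0 higher. At an unadjusted p under 0.05 these became 4, 1 and 0 lower and 0 higher, and with voom weights 3, 1 and 0 lower and 0 higher. The part of tissue makeup in the results below was not tested. In such bulk samples, fewer cells of a type and less RNA per cell cannot be told apart.

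Of the 10 genes, 8 were lower after 0.5 h of glutamate and 0 were higher at an adjusted p under 0.05 in limma. By the same call 14.6% of the 17750 tested genes were lower and 16.3% were higher, 30.8% in either direction. Since the genes were picked on this contrast, nothing is read from that count. At an unadjusted p under 0.05 there were 8 lower and 1 higher, and with voom weights 8 lower and 0 higher. The count of lower genes came to 4 without control replicate 1, without glutamate replicate 2 or with libraries centred on the control genes. Changes ran from -1.79 to 0.52 on the log2(RPKM + 1) scale, with a median of -0.71 beside -0.06 for all tested genes. Scaling to library totals moved the median of all genes to -0.23, and the 8 genes kept their sign there, with changes of -0.70 to -1.98. Both glutamate libraries lay below both controls in 37.1% of all tested genes and above them in 29.1%, so a lack of overlap is common here.

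**Figure D1:**
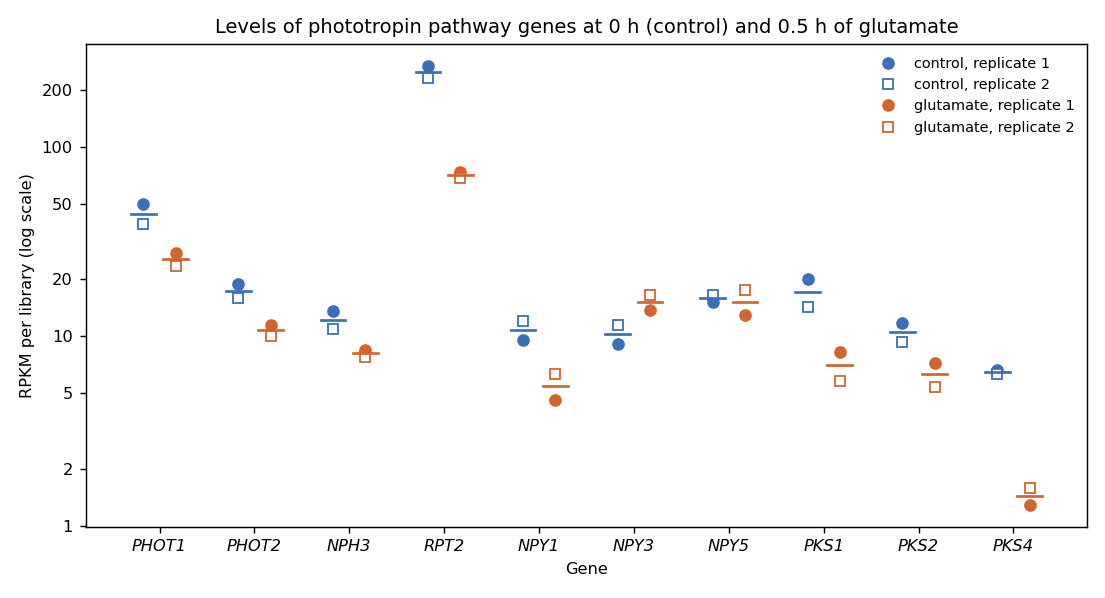
RPKM of each of the 10 genes in each library, on a log axis; filled circles are replicate 1, open squares replicate 2, blue the control, orange 0.5 h of glutamate, and bars the group means. The groups do not overlap for 9 genes, and only NPY3 has both glutamate libraries above both control libraries, at 13.8 and 16.5 RPKM. Of all tested genes, 37.1% have both glutamate libraries below both controls and 29.1% have both above.

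The phototropin transcripts were both lower after glutamate. PHOT1 (AT3G45780, on chromosome 3), the receptor that is the more sensitive to weak blue light, was at 49.95 and 39.0 RPKM in the control libraries and at 27.6 and 23.6 RPKM in the glutamate libraries. The groups did not overlap, and the log2 change was -0.77 ± 0.17 (SE). PHOT2 (AT5G58140, on chromosome 5), which drives the avoidance movement of chloroplasts in strong light, was at 18.9 and 16.0 RPKM in the control and at 11.4 and 10.095 RPKM in the glutamate libraries. Both glutamate libraries again lay below both controls, as in 37.1% of all tested genes, with a log2 change of -0.65 ± 0.14. The ratio of PHOT1 to PHOT2 was 2.64 and 2.44 in the control and 2.42 and 2.34 in the glutamate libraries. Both transcripts were thus lower in about the same proportion.

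The level of PHOT2 is uncertain. The deposited table divides its reads by a length of 6.50 kb, while its longest coding sequence has 2748 bases, and a longer divisor lowers the RPKM in all libraries alike. In the TAIR10.1 annotation the antisense-strand gene AT5G58150, a leucine-rich repeat kinase gene, lies wholly within the extent of PHOT2 over 2760 bases. AT5G58150 has 0 reads in every library, while the fraction of shared reads listed for PHOT2 is 0.548. The use of strand in counting is not given in the sources used here, so reads from this pair cannot be told apart. Whether shared reads alter the change of PHOT2 or its ratio to PHOT1 was not tested. PHOT1 has a shared fraction of 0, although the coding sequences of PHOT1 and PHOT2 are identical at 66.7% of aligned bases.

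Among the BTB-domain genes, RPT2 had the highest level and the largest change. RPT2 (AT2G30520, on chromosome 2), named for root phototropism, was at 268 and 230.3 RPKM in the control and at 73.9 and 68.9 RPKM in the glutamate libraries. These values rest on 17457 and 13115 reads against 3305 and 3573. The mean control level was 3.49 times the mean glutamate level, with a log2 change of -1.79 ± 0.14, and 0.935% of all tested genes had a more negative change. NPH3 (AT5G64330, on chromosome 5), the scaffold of phototropin signalling, was at 13.6 and 10.9 RPKM in the control and at 8.502 and 7.81 RPKM in the glutamate libraries. Both glutamate libraries lay below both controls, as in 37.1% of all tested genes, with a log2 change of -0.53 ± 0.15. The call of NPH3 was lost with no filter and with centring on the control genes, among other alternatives. RPT2 stood at 19.7 and 21.1 times the level of NPH3 in the control libraries and at 8.70 and 8.82 times in the glutamate libraries. Against PHOT1, RPT2 stood at 5.36 and 5.90 times before and at 2.68 and 2.92 times after glutamate. NPH3 overlaps the opposite-strand gene SAC51 by 24 bases, and its shared-read fraction is 0.011.

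Of the 3 NPY genes, known for auxin-dependent organ formation, 1 was called lower, beside 14.6% of all tested genes. NPY1 (AT4G31820, on chromosome 4), which acts with the PINOID kinase in cotyledon development, was at 9.6004 and 12.1 RPKM in the control and at 4.64 and 6.36 RPKM in the glutamate libraries. The groups did not overlap, with a log2 change of -0.87 ± 0.19 that was not called without glutamate replicate 1. NPY3 (AT5G67440, on chromosome 5) was at 9.15 and 11.5 RPKM in the control and at 13.8 and 16.5 RPKM in the glutamate libraries. It was the 1 gene of the 10 with both glutamate libraries above both controls, at a log2 change of 0.52 ± 0.17 that was not called. Without control replicate 2 it was called higher, with a change of 0.67. NPY5 (AT4G37590, on chromosome 4) was at 15.2 and 16.5 RPKM in the control and at 12.9 and 17.5 RPKM in the glutamate libraries. These ranges overlap, and its log2 change was -0.07 ± 0.17, with a sign that turned to 0.14 without glutamate replicate 1. The summed level of NPY1, NPY3 and NPY5 was 34.0 and 40.1 RPKM in the control and 31.4 and 40.4 RPKM in the glutamate libraries. NPY3 and NPY5 are the more alike in sequence, at 69.7% of aligned coding bases against 64.6% for NPY1 with NPY3 and 63.5% for NPY1 with NPY5. The remaining genes of this subfamily had too few reads to be tested: NPY2 had 24 and 13 reads in the control and 3 and 2 in the glutamate libraries, and NPY4 had 7, 3, 3 and 2.

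Promoter letters were searched for 7 motifs. A W-box, TTGACC or TTGACT on either strand, the motif that WRKY factors bind, was found between 250 bases before and 50 after the annotated start in NPY3 and NPY5 and in 0 of the other 8 genes. Of all 27438 promoters of protein-coding nuclear genes of that length, 32.4% hold it, a larger share than the 2 of 10 found here. NPY3 has it at 135, 77 and 38 bases before the start and NPY5 at 146, 115 and 72. An evening element, AAATATCT, a motif of clock-regulated promoters, was found in PKS4 alone, 208 bases before its start, and in 5.6% of all promoters. The I-box GATAAG, a motif of light-regulated genes, was found in NPY3 (14.7% of all promoters) and the GCC box GCCGCC in PHOT2 (2.6%), in 1 of the 10 genes each. The PHOT2 match lies within the neighbouring gene ROS3, whose start is 6 bases from that of PHOT2 on the opposite strand. The G-box CACGTG (7.7%), the CAMTA-type letters CGCGT (8.7%) and the auxin response letters TGTCTC (14.2%) were in 0 of the 10. A match describes letters only, and no match says nothing of a factor.

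The 250 bases upstream of the start are shown for NPY3 and NPY5, with their W-boxes, and for RPT2 and PKS4, the most reduced genes of the 10. They were read from the TAIR10.1 assembly at chr5:26916454-26916703, chr4:17666737-17666986 and chr2:13005747-13005996, all on the minus strand, and at chr5:1150636-1150885 on the plus strand. All are written 5′ to 3′ along the gene, and capitals mark the motifs searched.
NPY3: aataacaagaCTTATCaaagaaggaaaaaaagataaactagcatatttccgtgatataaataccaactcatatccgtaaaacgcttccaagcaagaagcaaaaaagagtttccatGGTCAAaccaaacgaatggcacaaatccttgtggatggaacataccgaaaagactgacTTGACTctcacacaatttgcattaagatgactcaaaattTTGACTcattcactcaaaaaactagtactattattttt
NPY5: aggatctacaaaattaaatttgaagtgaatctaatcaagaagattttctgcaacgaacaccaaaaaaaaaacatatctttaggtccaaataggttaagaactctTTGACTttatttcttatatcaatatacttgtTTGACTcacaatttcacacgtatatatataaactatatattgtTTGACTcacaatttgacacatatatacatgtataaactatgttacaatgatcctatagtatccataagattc
RPT2: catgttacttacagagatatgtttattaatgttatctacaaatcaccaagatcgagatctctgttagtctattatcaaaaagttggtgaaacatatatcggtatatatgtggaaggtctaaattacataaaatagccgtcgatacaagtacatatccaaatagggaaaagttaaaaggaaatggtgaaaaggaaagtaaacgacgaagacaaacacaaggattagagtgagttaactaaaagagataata
PKS4: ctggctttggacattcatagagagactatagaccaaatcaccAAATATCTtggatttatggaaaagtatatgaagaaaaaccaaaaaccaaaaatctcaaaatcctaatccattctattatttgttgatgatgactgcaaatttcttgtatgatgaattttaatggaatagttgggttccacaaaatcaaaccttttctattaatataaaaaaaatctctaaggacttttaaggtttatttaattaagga

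The 3 PKS genes were all called lower after glutamate, beside 14.6% of all tested genes. PKS1 (AT2G02950, on chromosome 2), the founding phytochrome kinase substrate, was at 20.1 and 14.3 RPKM in the control and at 8.28 and 5.79 RPKM in the glutamate libraries, a log2 change of -1.18 ± 0.23. PKS2 (AT1G14280, on chromosome 1), which forms a complex with phototropins and NPH3, was at 11.7 and 9.30 RPKM in the control and at 7.26 and 5.43 RPKM in the glutamate libraries, a change of -0.65 ± 0.19. PKS4 (AT5G04190, on chromosome 5), a protein phosphorylated in a PHOT1-dependent manner, was at 6.67 and 6.36 RPKM in the control and at 1.29 and 1.58 RPKM in the glutamate libraries. For each of these genes both glutamate libraries lay below both controls, as in 37.1% of all tested genes. The call of PKS2 was lost with no filter and with centring on the control genes, among other alternatives. PKS4 had the lowest level of the 10 genes in both groups, with 305 and 254 reads in the control and 40 and 57 in the glutamate libraries. Its mean control level was 4.55 times its glutamate level, the largest ratio among the 10, and its log2 change of -1.63 ± 0.14 understates this because 1 RPKM is added. With 0.1 RPKM added the change was -2.12. All 3 PKS genes are encoded by a single coding exon, whereas the BTB-domain genes have 4 to 6 coding exons and the phototropins 20 and 22. The coding sequences of PKS1 and PKS2 are identical at 77.3% of aligned bases, the most of any pair compared. Each of these genes has a shared-read fraction of 0. PKS1 overlaps the opposite-strand non-coding RNA gene AT2G04465 by 189 bases in TAIR10.1. AT2G04465 has no values in the deposited data, so any reads of it cannot be told apart from those of PKS1.

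Per length, RPT2 and PHOT1 were the most abundant of the 10 in both groups, at 249 ± 26.6 and 44.5 ± 7.71 RPKM (SD, n = 2) in the control and at 71.4 ± 3.57 and 25.6 ± 2.82 RPKM after glutamate. In the control, PHOT2, PKS1 and NPY5 followed, at means of 17.5, 17.2 and 15.9 RPKM, and neighbours among these had overlapping ranges. NPH3, NPY1, PKS2 and NPY3 came next, at 12.3 to 10.3 RPKM, again with overlapping neighbours, and PKS4 was apart at the bottom, at 6.52 RPKM. After glutamate NPY5 and NPY3 moved to the third and the fourth place, at 15.2 RPKM each, and their ranges overlapped. They stood above PHOT2 at 10.8 RPKM. The place of PHOT2 in either order is uncertain, since its RPKM depends on the long length used as divisor. NPH3, PKS1, PKS2 and NPY1, at 8.16 to 5.50 RPKM, overlapped with their neighbours in the order, and PKS4 was last at 1.43 RPKM. Replicate 1 lay above replicate 2 in both groups for 6 of the 10 genes, the phototropins, NPH3, RPT2, PKS1 and PKS2, and below it in both groups for the 3 NPY genes. Over all tested genes these shares were 38.2% and 36.4%.

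**Figure D2:**
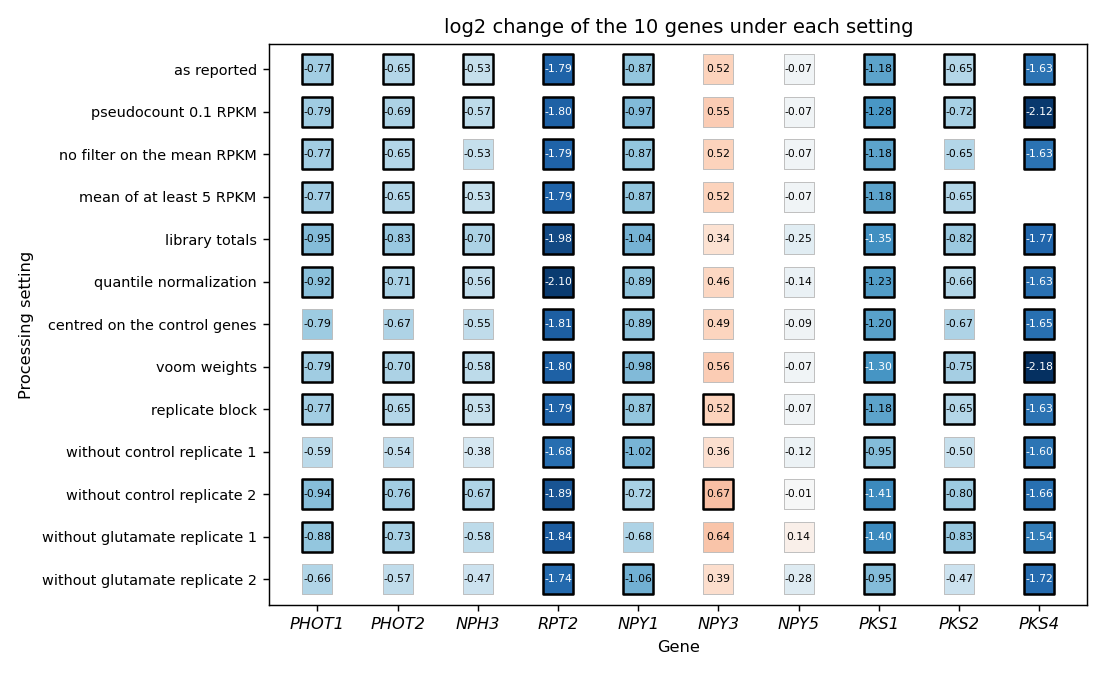
log2 change of the 10 genes (columns) under each processing setting (lines), with the value printed and coloured from blue (lower) to red (higher); a black frame marks an adjusted p under 0.05 and a gap a gene that was not tested. Frames are a description, since the genes were picked on this contrast; 3 of the 12 alternatives leave PHOT1 and PHOT2 without a frame, 5 leave NPH3, 4 leave PKS2 and 1 leaves NPY1 without one.

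Among the listed genes of the wider NPH3/RPT2-like family the called changes were all decreases. TAIR10.1 names 33 loci with an NPH3 family product, of which 5 are among the 10 genes, 27 were on a list of further family genes and 1, AT3G49900, was on neither. Of these 27 genes, 14 reached a mean of 1 RPKM and were tested, and 8 of the 14 were lower in limma, against 14.6% of all tested genes. None was higher, at an unadjusted p under 0.05 (0 higher, 9 lower) or with voom weights (0 higher, 8 lower) either. The median change was -0.72. With 1 RPKM added before taking logs, which shrinks changes at low levels, the largest changes were those of AT3G22104, AT3G15570, AT1G67900 and AT3G19850, whose functions the annotation gives only as NPH3 family proteins. AT3G22104 fell from 19.2 and 15.1 RPKM to 5.19 and 3.75 RPKM, a log2 change of -1.73 ± 0.19 (limma adjusted p = 0.00192). AT1G67900 fell from 17.6 and 15.4 RPKM to 5.03 and 4.80 RPKM, a change of -1.56 ± 0.13 (limma adjusted p = 0.00072). AT3G19850 fell from 16.7 and 13.8 RPKM to 6.97 and 6.05 RPKM, a change of -1.11. AT3G15570 fell from 3.05 and 3.07 RPKM to 0.461 and 0.243 RPKM, with a shared-read fraction of 0.269 that leaves its level uncertain. In all 4 genes both glutamate libraries lay below both control libraries, as in 37.1% of all tested genes. By the ratio of mean control to mean glutamate RPKM, AT1G50280 (3.54) and AT3G50840 (2.93), also called lower, exceeded AT3G19850 (2.34). The level of AT1G50280 is uncertain too, with a shared-read fraction of 0.387 and 20.4 and 16.6 reads in the glutamate libraries. The other 13 genes of the list had means of at most 0.616 RPKM and were not tested, among them NPY2, NPY4 and DOT3. With AT3G49900 left aside, NPY3 was the 1 tested family gene whose glutamate libraries both lay above the controls.

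**Figure D3:**
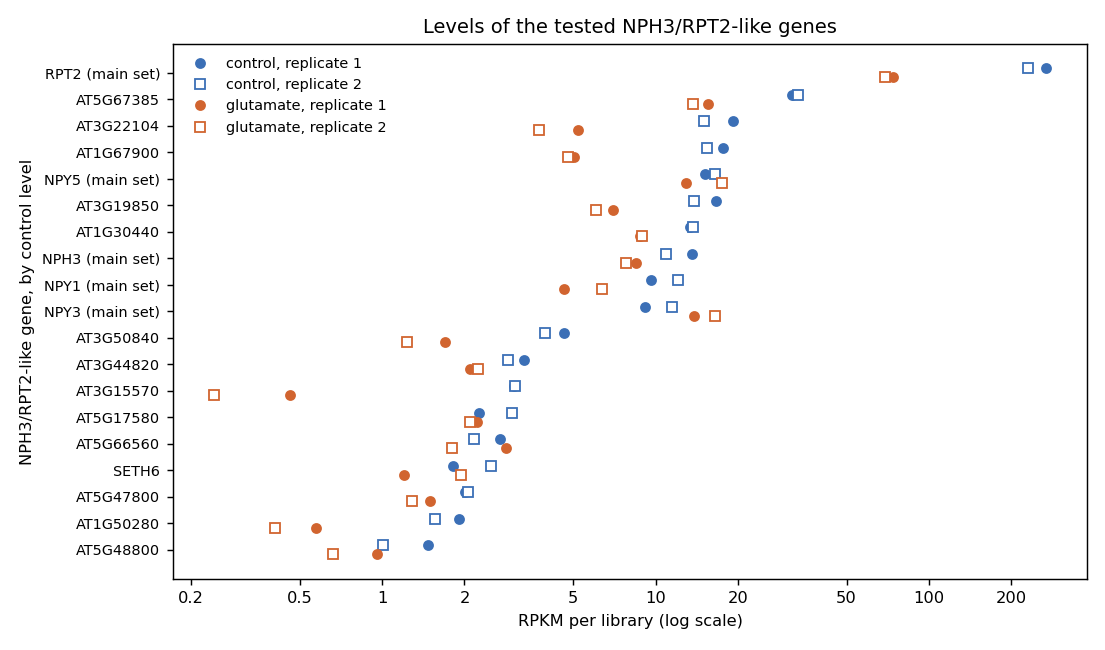
RPKM per library, on a log axis, of the 19 listed NPH3/RPT2-like genes that were tested, ordered by control level. Filled circles are replicate 1, open squares replicate 2, blue the control and orange 0.5 h of glutamate. Most genes have both orange symbols to the left of both blue ones, as have 37.1% of all tested genes. NPY3 has them to the right, as have 29.1% of all tested genes. RPT2 is highest in both groups, at 268 and 230.3 RPKM before and 73.9 and 68.9 RPKM after glutamate.

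Of the 14 genes on the list of phototropin partners, which holds proteins that act with or after the receptors, 3 were higher and 1 was lower in limma (16.3% and 14.6% of all tested genes), with a median change of -0.21. EHB1 (AT1G70800), an NPH3-binding protein with a calcium-binding domain that the annotation lists as a negative regulator, rose from 1.19 and 1.303 RPKM to 17.1 and 21.1 RPKM. Its mean level after glutamate was 15.4 times that of the control, a log2 change of 3.16 ± 0.15 (limma adjusted p = 0.000122), the largest change on any of the lists described here. The control level of EHB1 rests on only 24 and 23 reads, against 242 and 347 after glutamate, so the ratio is imprecise. AT1G18810, annotated as a phytochrome kinase substrate-like protein, fell from 5.38 and 4.36 RPKM to 0.899 and 0.988 RPKM, a change of -1.59 ± 0.16 (limma adjusted p = 0.00125). It was thus lower together with PKS1, PKS2 and PKS4. AT4G18950, an integrin-linked kinase family gene, rose from 48.2 and 45.0 RPKM to 109.6 and 111 RPKM, and the auxin-induced repressor gene IAA19 (AT3G15540) from 1.95 and 1.41 RPKM to 5.45 and 4.88 RPKM. The log2 changes of this pair were 1.23 ± 0.12 and 1.21 ± 0.16. NPH4, a gene of an auxin-responsive activator of bending, was at 8.83 and 8.08 RPKM in the control and at 8.49 and 8.69 RPKM after glutamate, and is named here although it was picked after its values were seen.

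Among 9 AGC kinase genes of polar auxin transport, 6 were tested, 2 were higher and 1 was lower (16.3% and 14.6% of all tested genes), with a median change of -0.17. PID (AT2G34650), the PINOID kinase that NPY1 acts with, rose from 2.87 and 2.57 RPKM to 11.2 and 16.3 RPKM, a log2 change of 1.97 ± 0.20 (limma adjusted p = 0.00137). The kinase gene AT3G44610 rose from 4.55 and 4.37 RPKM to 13.3 and 12.1 RPKM, a change of 1.33 ± 0.13. D6PK (AT5G55910), a kinase that activates auxin carriers, fell from 40.1 and 34.9 RPKM to 25.5 and 21.9 RPKM, a change of -0.64 ± 0.14 (limma adjusted p = 0.0228). D6PK missed the threshold once control replicate 1 was dropped (limma adjusted p = 0.0788), without glutamate replicate 2 (0.107) and with centring on the control genes (0.0608), within a range of 0.000503 to 0.107 over its 12 alternatives.

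Of 8 genes of phototropin-driven chloroplast movement, 5 were lower and 0 higher in limma (14.6% and 16.3% of all tested genes), with a median change of -0.74. At an unadjusted p under 0.05 and with voom weights there were also 5 lower and 0 higher. AT1G64500, a glutaredoxin family gene that the annotation links to light-stimulated actin bundling, fell from 25.6 and 27.7 RPKM to 4.48 and 5.002 RPKM, a log2 change of -2.27 ± 0.13 (limma adjusted p = 0.00019). PMI1 (AT1G42550) fell from 31.4 and 23.7 RPKM to 11.0 and 9.15 RPKM, and JAC1 (AT1G75100), an auxilin-like protein of the accumulation movement, from 22.6 and 22.0 RPKM to 9.38 and 8.58 RPKM. The coiled-coil gene PMI2 (AT1G66840) fell from 4.35 and 3.58 RPKM to 1.56 and 1.39 RPKM. CHUP1, the actin-binding anchor of chloroplasts, was at 60.8 and 53.9 RPKM before and at 59.4 and 49.8 RPKM after glutamate, and is named although it was picked after its values were seen.

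Of 8 further receptors for blue or UV-B light, 6 were lower and 0 higher in limma (14.6% and 16.3% of all tested genes), with a median change of -0.75. At an unadjusted p under 0.05 there were 7 lower and 0 higher, and with voom weights 6 lower and 0 higher. The cryptochrome genes CRY1 (AT4G08920) and CRY2 (AT1G04400) fell from 77.9 and 78.8 RPKM to 34.3 and 31.1 RPKM and from 98.4 and 85.5 RPKM to 52.5 and 50.04 RPKM. PLPB (AT2G02710), a LOV-domain protein gene, fell from 105 and 109 RPKM to 45.1 and 47.6 RPKM, a log2 change of -1.19 ± 0.12 (limma adjusted p = 0.00124). ZTL (AT5G57360), an F-box protein of the clock with a LOV domain, fell from 32.9 and 33.9 RPKM to 15.5 and 16.6 RPKM, a change of -1.01 ± 0.12. All 4 genes had both glutamate libraries below both controls, as had 37.1% of all tested genes. Of the shoot markers, 3 of 8 were called lower, as given above, and their part in these results was not tested. Whether the change of the phototropins differs from that of these receptors was not tested.

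**Figure D4:**
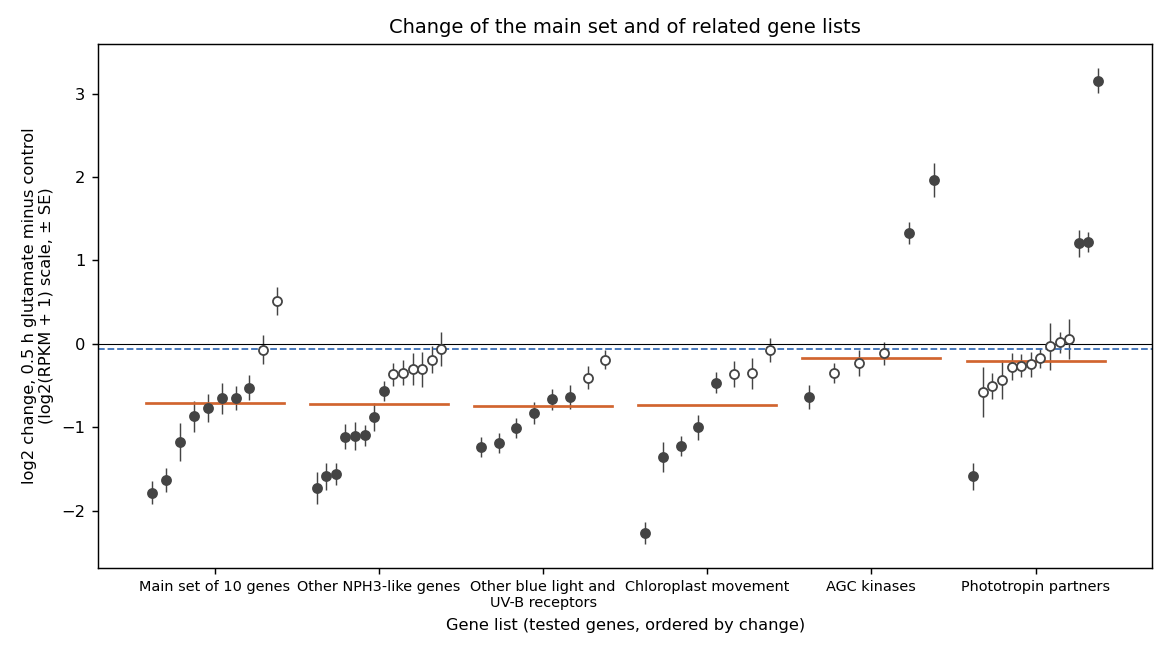
log2 change (0.5 h of glutamate minus control, log2(RPKM + 1) scale, ± SE) of the tested genes of each list, ordered within it; filled circles have an adjusted p under 0.05, orange bars are list medians and the dashed line is the median of all tested genes, -0.06. The main set and 3 of the lists have medians of -0.71 to -0.75. The AGC kinases and the phototropin partners have medians of -0.17 and -0.21. Only they hold genes called higher, with EHB1 at the top at 3.16. NPY3 of the main set also has a positive change, 0.52, which was not called.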

How the data were processed

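RNA-seq values of 4 libraries were used as deposited. The deposited values are named as TMM-normalized (trimmed mean of M-values) by the authors, and the values themselves behave as RPKM, that is, reads over the listed gene length and over a TMM-scaled library size. The submitters' processing notes name TAIR10 as the build and SAMtools as a tool; the aligner and counter were not given in the sources used here. In each library, value times length takes whole odd multiples of a lowest level in genes with a shared-read fraction of 0. Thus 0.5 reads had been added to each gene, and reads were recovered from those steps. They were whole, within 0.01, for 85.4% to 86.2% of all genes and for 100% of those with a shared-read fraction of 0. The deposited fraction maxMultiRatio, not defined in the file headers, was read as the fraction of reads shared with another gene.

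The 17750 of 33602 genes whose mean reached 1 RPKM were tested as log2(RPKM + 1) with limma 3.58.1 in R 4.3.3, with an intensity-trended variance prior, two-sided, with Benjamini-Hochberg adjustment over all tested genes. Calls required an adjusted p under 0.05. With 2 libraries on each side, exact permutation gives 0.33 at the lowest and was not run. The steps were also run on simulated reads, drawn independently for each library. Same-numbered libraries here deviated together (r = 0.60), so that run does not measure the error rate of these calls. The main set, gene lists, motifs and tests were chosen with earlier results of these data known. Named genes are the main set and, from each other list, up to 4 called genes with the largest absolute change; an adjoining gene was to be named if called with a log2 change of at least 2. Promoters and coding sequences were read by locus from TAIR10.1 with Biopython 1.88, since no prepared promoter or protein table was used here, and coding sequences replace a planned protein comparison. Identity is the share of matching bases over aligned columns without gaps. Alternatives covered pseudocount, filter, scaling, voom weights, replicate block and each library left out.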

Additional observations from a re-analysis of the deposited data

How the results depend on the processing

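Over 12 alternatives the 10 genes gave 119 values, of which 7 moved by more than the spread between replicates and 0 of the called ones reversed. Calls of these genes were lost under 3 alternatives each for PHOT1 and PHOT2 (centring on the control genes, without control replicate 1 and without glutamate replicate 2), 5 for NPH3 (also with no filter and without glutamate replicate 1), 4 for PKS2 (also with no filter) and 1 for NPY1 (without glutamate replicate 1). The 19 other named genes gave 224, of which 221 kept the call and 3, all of D6PK, missed the threshold. Genes called lower numbered 2585 as reported and 4361 with library totals, where higher genes made up 36.0% of calls (2449 higher) against 52.8% as deposited; with quantile normalization they made up 43.9%. With library totals the partners had 3 lower and the AGC kinases 2. With quantile normalization each of these lists had 2 lower. With centring on the control genes 4 of the 10 genes, 2 partners and 0 AGC kinases were lower. With a mean of at least 5 RPKM 5 further NPH3-like genes and 0 partners were lower, since fewer genes were tested. With 1 library left out, 0 to 1 of the 10 genes were higher and 4 to 8 lower, 1 to 2 partners were lower and 0 to 1 AGC kinases were lower; the lone library of a group is then assumed to vary like the other group. The causes of the other shifts were not tested.

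Replicate numbers were not treated as pairs, since the labels give them no meaning and there are only 2; same-numbered libraries deviated together across genes (r = 0.60). With the replicate block 4445 genes were higher and 5280 lower, and 1 of the 10 genes (NPY3) was higher, with 6 partners and 2 AGC kinases lower. The lowest depth among the 10 genes was that of PKS4 after glutamate, at 40 and 57 reads. Other named genes had fewer reads after glutamate, with 17.7 and 10.6 for AT3G15570 and 25 and 32 for AT1G18810.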

Other observations

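The genes that adjoin or overlap the 10 genes in TAIR10.1 number 23, of which 20 are in the deposited table and 15 were tested. Of these, 3 were higher and 2 lower in limma, beside 16.3% and 14.6% of all tested genes. Of the 15, 0 changed by 2 or more as log2(RPKM + 1), in which changes at low levels shrink. The downstream neighbour of RPT2 on the same strand, AT2G30505, 111 bases away, was at 0.950 and 1.41 RPKM in the control and at 2.27 and 3.06 RPKM in the glutamate libraries, a log2 change of 0.75 where that of RPT2 was -1.79. NPY3 lies next to AT5G67430, on the opposite strand and 603 bases away, which was at 4.23 and 4.45 RPKM in the control and at 0.549 and 0.387 RPKM after glutamate. On its other side, 2311 bases away on the same strand, ZF1 (AT5G67450), a zinc finger gene, was at 13.4 and 14.4 RPKM in the control and at 22.6 and 32.9 RPKM after glutamate. These neighbours were picked after their values were seen.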
